A study of Homo sapiens with 5 samples.

Results

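The nuclear lamina is a meshwork of intermediate filament proteins, the lamins, that lines the inner nuclear membrane. Membrane proteins anchor it, some of them bind chromatin through the small DNA-binding protein BAF, and SUN proteins connect it across the envelope to the cytoskeleton. Loss of lamin B1 is a widely used marker of senescence in human fibroblasts. The genes described here are 10 genes of this structure, LMNA, LMNB1, LMNB2, LBR, EMD, TMPO, LEMD3, BANF1, SUN1 and SUN2, chosen by symbol from the 26364 genes listed. All 10 passed the filter on low values, a minimum of 10 for the mean normalized count over the 5 libraries, which left 11313 genes for testing.

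The mRNA-seq libraries were made from growing cells of the human lung fibroblast line IMR-90, which is not transformed, 24 hr after siRNA transfection. Ctr-KD cells received a control siRNA (2 libraries, Ctr-1 and Ctr-2), and NSD2-KD cells received 1 of 3 siRNAs against NSD2, an enzyme that methylates histone H3 at lysine 36 (3 libraries, NSD2-1, NSD2-2 and NSD2-3). Each NSD2 siRNA has 1 library, so that the siRNA and the replicate cannot be told apart. In bulk samples such as these, fewer cells of a type and less RNA per cell cannot be told apart either.

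The libraries held between 2473691 and 2845063 reads on genes, and 3 reads, taken as the lowest level distinguishable from 0, corresponded to between 2.761 and 3.277 normalized counts. The targeted gene, listed under its older symbol WHSC1, had normalized counts of 463 and 443.4 in Ctr-KD cells and of 90.18, 81.93 and 87.85 in NSD2-KD cells. Its level fell under every siRNA, with a log2 difference of -2.37 (SE 0.124, limma adjusted p = 0.000464). Its log2 difference was -2.34 without Ctr-1 and -2.41 without Ctr-2. With 1 Ctr-KD library left, the spread within groups comes from the NSD2-KD libraries alone. Neither fit can show whether the call rested on a control. All 10 fibroblast markers examined were tested, with a median log2 difference of 0.041, whereas no epithelial (EPCAM, CDH1, KRT5, SFTPC) or endothelial (PECAM1, VWF, CDH5, KDR) marker passed the filter. Of the leukocyte markers only CD68 passed, and PTPRC, CD3E and LYZ were listed at 0. Ctr-1 and Ctr-2 differed by little more than the noise of sampling reads, with a chi-square of 1.046 for each degree of freedom, whereas for the other pairs of libraries it was between 3.874 and 5.287. The study's methods call the Ctr-KD libraries biological replicates. The labels do not say how their cultures were separated, and p-values measure only the spread between these samples.

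TMPO, LMNB1 and LBR had the lowest levels in NSD2-KD cells relative to Ctr-KD cells. Their mean normalized counts were 128 against 335.4, 109.1 against 241.8 and 74.85 against 170.3. LMNA, EMD, BANF1, SUN1 and SUN2 had log2 differences between -0.12 and 0.11, and LMNB2 and LEMD3 had log2 differences of -0.28 and -0.16 with overlapping groups. None of the 10 genes passed an adjusted p of 0.05 in limma, in which 10 of the 11313 tested genes (0.0884%) passed in either direction. Without Ctr-1 or without Ctr-2, 0 genes passed, without NSD2-1 there were 16, without NSD2-2 there were 4, and without NSD2-3 there were 30. At an unadjusted p under 0.05, 3 of the 10 were lower and 0 were higher, beside 4.99% of all tested genes that were lower and 4.19% that were higher. DESeq2 on the recovered reads called TMPO, LMNB1 and LBR lower, beside 0.471% of its 9339 genes called lower. LBR alone passed in edgeR's quasi-likelihood test, in which 0.141% of tested genes passed, and in limma with robust estimation, in which 0.115% passed. DESeq2 called between 2 and 3 of the 10 genes without an NSD2-KD library. In the same fits it called 42, 28 and 64 of all genes without NSD2-1, NSD2-2 and NSD2-3. With 1 Ctr-KD library left, the spread within groups comes from the NSD2-KD libraries alone. Those fits cannot show whether the DESeq2 calls rested on a control, and only their log2 differences are given here. The DESeq2 log2 differences without Ctr-1 and without Ctr-2 were -1.14 and -1.15 for LMNB1, -1.4 and -1.39 for TMPO, and -1.32 and -1.05 for LBR.

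**Figure D1:**
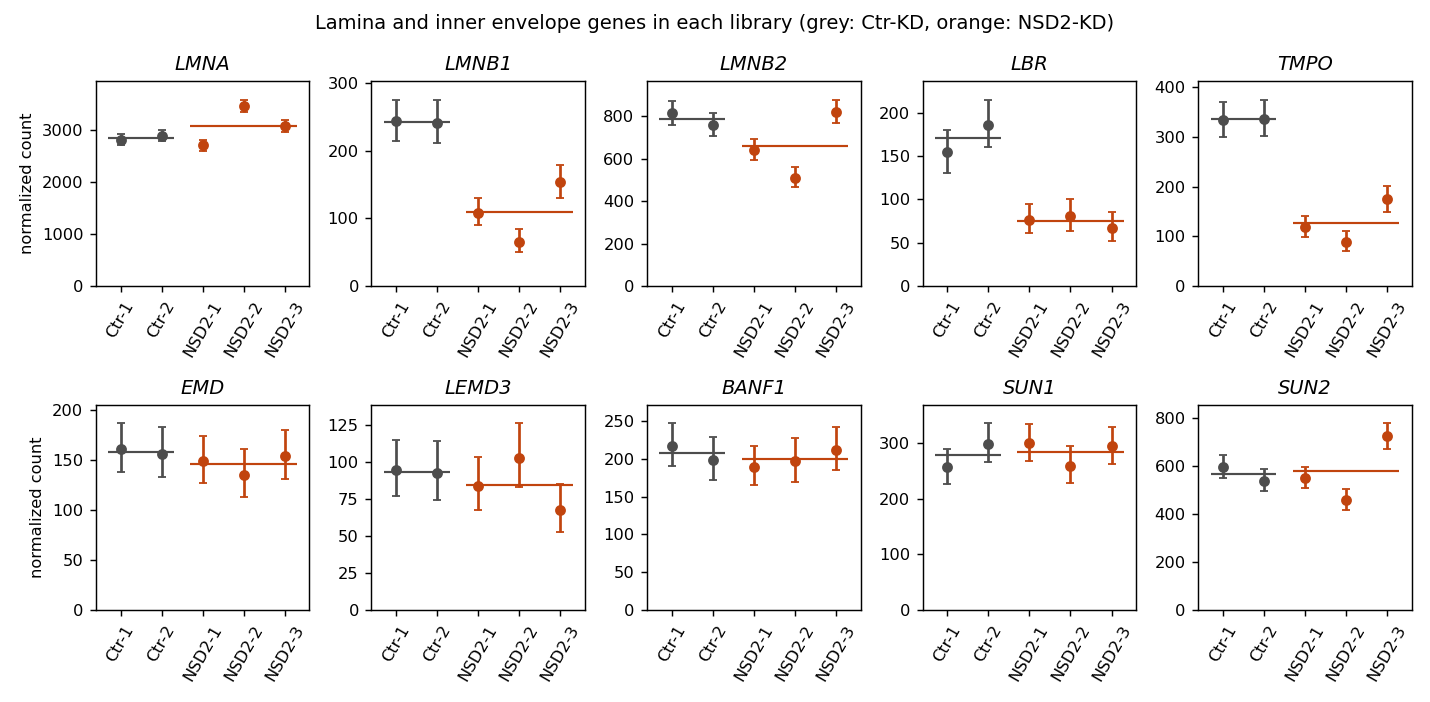
Normalized count (vertical axes, from 0) of the 10 lamina and inner envelope genes in each of the 5 libraries, with grey points for Ctr-KD, orange points for NSD2-KD, vertical bars for the 95% counting interval of each library and horizontal lines for group means. TMPO, LMNB1 and LBR lie well below both Ctr-KD libraries under every siRNA, and the groups of LMNA, LMNB2, LEMD3, BANF1, SUN1 and SUN2 overlap.

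The genes also differed widely in level. To compare genes, reads were divided by the length of each gene's merged exons in kilobases and by the library's reads on genes, in units of 1000000 reads. The lengths are from GENCODE, and the annotation used for the counting is not given. The exons measured and those counted may therefore differ. On this scale LMNA was the highest in Ctr-KD cells, at 133 ± 1.94 (SD, n = 2). LMNB2 (55.1 ± 2.92) and BANF1 (52.5 ± 3.55) followed and did not differ beyond their spread. EMD stood at 30.1 ± 0.746, and SUN2 (25.7 ± 1.91) and LMNB1 (25.2 ± 0.267) did not differ beyond theirs. TMPO, LBR, SUN1 and LEMD3 were the lowest, at 14.9, 11.3, 8.87 and 6.33. The order depends on the length used: with the longest transcript of each gene, BANF1 (69.2) stood above LMNB2 (64.1), TMPO (30.6) stood above LMNB1 (26.3), and SUN1 (23.4) stood above LBR (16.9). With that length LMNA, TMPO and SUN1 moved the most, LMNA to 299. In NSD2-KD cells LMNA remained the highest on the merged-exon scale (143 ± 15.3, n = 3), and LBR (4.94 ± 0.414), TMPO (5.69 ± 1.96) and LEMD3 (5.71 ± 1.12) were the lowest.

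**Figure D2:**
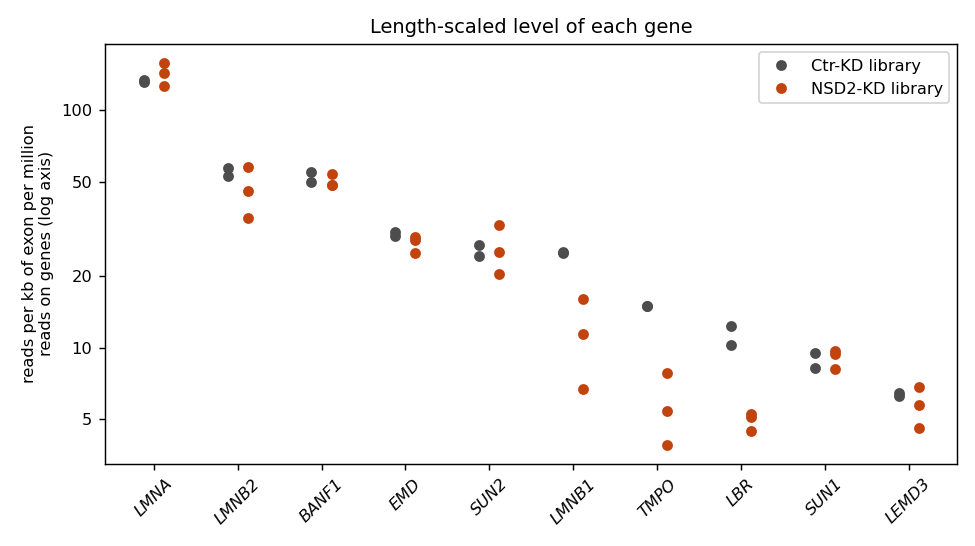
Reads per kilobase of merged exons per 1000000 reads on genes (log axis) for the 10 genes, ordered by the Ctr-KD mean, with 1 point per library (grey Ctr-KD, orange NSD2-KD). LMNA stands at 133 in Ctr-KD cells and LEMD3 at 6.33, and the orange points of LMNB1, TMPO and LBR lie apart from the grey ones.

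Of the lamins, LMNB1 (chr5:126112315-126172712, plus strand, GRCh37) encodes lamin B1, a lamin that stays farnesylated and attached to the membrane. Its normalized counts were 242.9 and 240.7 in Ctr-KD cells and 108.6, 65.54 and 153.3 with NSD2-1, NSD2-2 and NSD2-3. All NSD2-KD values lay below both Ctr-KD values, at 44.9%, 27.1% and 63.4% of the Ctr-KD mean. The log2 difference was -1.22 (SE 0.301, 95% confidence interval -1.92 to -0.53). The limma p was 0.00344 before adjustment and 0.267 after it, and the adjusted p was 0.0418 with DESeq2 and 0.209 with edgeR's quasi-likelihood test. The DESeq2 call of LMNB1 ended without NSD2-1 (adjusted p = 0.116) and without NSD2-2 (adjusted p = 0.151). Without NSD2-3 the call stayed, with a DESeq2 log2 difference of -1.47 (adjusted p = 0.000484).

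LMNB2 (chr19:2427636-2456957, minus strand) encodes lamin B2, the other B-type lamin. Normalized counts were 813.6 and 759.2 in Ctr-KD cells and 643.2, 511.2 and 820.9 in NSD2-KD cells. NSD2-1 and NSD2-2 lay below both controls, at 81.8% and 65% of the Ctr-KD mean, and NSD2-3 lay above both, at 104.4%. The log2 difference of -0.28 (SE 0.178) had a 95% confidence interval from -0.69 to 0.13 (limma adjusted p = 0.695).

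LMNA (chr1:156052364-156109872, plus strand) encodes the A-type lamins A and C as splice forms, which a count per gene does not separate. It had 2819 and 2895 normalized counts in Ctr-KD cells and 2711, 3471 and 3081 in NSD2-KD cells. The lowest and the highest of the 5 values were both from NSD2-KD cells. The log2 difference was 0.11 (95% confidence interval -0.15 to 0.36, limma adjusted p = 0.831).

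Ratios of 2 genes within a library do not depend on its size factor. The log2 ratio of LMNB1 to LMNB2 was -1.74 and -1.65 in Ctr-KD cells and -2.56, -2.94 and -2.41 in NSD2-KD cells. It was lower by 0.94 on average in NSD2-KD cells, with no overlap (exact permutation test, two-sided, p = 0.1, the smallest that 2 against 3 libraries allow, and 0.2 after adjustment over 4 ratios). The log2 ratio of LMNB1 to LMNA was -3.53 and -3.58 in Ctr-KD cells and -4.63, -5.71 and -4.32 in NSD2-KD cells, again with no overlap (exact permutation p = 0.2, adjusted 0.267).

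Among the membrane proteins, LBR (chr1:225589204-225616627, minus strand) encodes the lamin B receptor, which binds B-type lamins and heterochromatin protein HP1 and is also a sterol reductase. Its normalized counts were 154.3 and 186.2 in Ctr-KD cells and 76.37, 80.83 and 67.35 in NSD2-KD cells. The siRNAs gave close values, at 44.9%, 47.5% and 39.6% of the Ctr-KD mean, all below both controls. LBR was the member nearest to the limma threshold, with a log2 difference of -1.17 (SE 0.161, 95% confidence interval -1.54 to -0.8, adjusted p = 0.0626). It was at rank 13 of all tested genes by p, and its adjusted p was 0.0399 with edgeR's quasi-likelihood test, 0.000616 with DESeq2 and 0.047 in limma with robust estimation. The log2 ratio of LBR to EMD was -0.06 and 0.25 in Ctr-KD cells and -0.96, -0.74 and -1.18 in NSD2-KD cells (exact permutation p = 0.1, adjusted 0.2).

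TMPO (chr12:98909357-98944129, plus strand) encodes the lamina-associated polypeptides 2, LEM-domain proteins that bind BAF and lamins. A count per gene does not separate these forms. TMPO had 334.4 and 336.4 normalized counts in Ctr-KD cells and 119.6, 89.57 and 174.7 in NSD2-KD cells. All NSD2-KD values lay below both controls, at 35.7%, 26.7% and 52.1% of the Ctr-KD mean. Its log2 difference of -1.44 (SE 0.245, 95% confidence interval -2 to -0.87) was the lowest of the 10 (adjusted p = 0.149 with limma, 0.0983 with edgeR and 0.000281 with DESeq2). Without NSD2-3 the log2 difference was -1.69 and passed in limma (adjusted p = 0.0144). Exons of TMPO overlap those of the divergent gene TMPO-AS1 on the opposite strand over 7.6% of their length. The strand setting of the counting is not given in the sources used here, and reads of that stretch may belong to either gene. TMPO-AS1 had 80.98 and 99.79 normalized counts in Ctr-KD cells and 34.97, 30.59 and 45.88 in NSD2-KD cells (log2 difference -1.27, limma adjusted p = 0.164).

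The other LEM-domain genes and the gene of BAF had log2 differences between -0.16 and -0.06, none past the threshold. EMD (chrX:153607633-153609934, plus strand), which encodes emerin, had 161 and 156.4 normalized counts in Ctr-KD cells and 149.1, 135.4 and 154.2 in NSD2-KD cells. All NSD2-KD values were below both controls, but the log2 difference was only -0.12 (95% confidence interval -0.42 to 0.18, limma adjusted p = 0.838). LEMD3 (chr12:65563363-65642135, plus strand) encodes MAN1, an inner membrane protein that binds SMAD proteins. Its normalized counts were 94.31 and 92.59 in Ctr-KD cells and 83.74, 102.7 and 67.35 in NSD2-KD cells, on both sides of the controls (log2 difference -0.16, 95% confidence interval -0.62 to 0.29). BANF1 (chr11:65769699-65771620, plus strand) encodes BAF, which bridges DNA and LEM-domain proteins. It had 217.2 and 198.6 normalized counts in Ctr-KD cells and 189.6, 196.6 and 211.8 in NSD2-KD cells (log2 difference -0.06, 95% confidence interval -0.34 to 0.22).

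SUN1 and SUN2 encode the inner membrane components of the LINC complex. These proteins bind lamins on one side and nesprins, the outer membrane components, on the other. SUN1 (chr7:856252-936072, plus strand) had 257.2 and 299.4 normalized counts in Ctr-KD cells and 300, 260 and 294.8 in NSD2-KD cells (log2 difference 0.04, 95% confidence interval -0.25 to 0.32). SUN2 (chr22:39129295-39190148, minus strand) had 596.4 and 540.1 in Ctr-KD cells and 551.2, 461 and 725.3 in NSD2-KD cells (log2 difference 0.00, 95% confidence interval -0.4 to 0.41). The groups of both genes overlapped, and the log2 ratio of SUN1 to SUN2 differed by 0.03 between NSD2-KD and Ctr-KD cells (exact permutation p = 0.9, adjusted 0.9). Exons of SUN1 overlap those of GET4 over 15.54% of their length, and exons of SUN2 overlap those of GTPBP1 over 13.59%, so that some of their reads are uncertain.

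**Figure D3:**
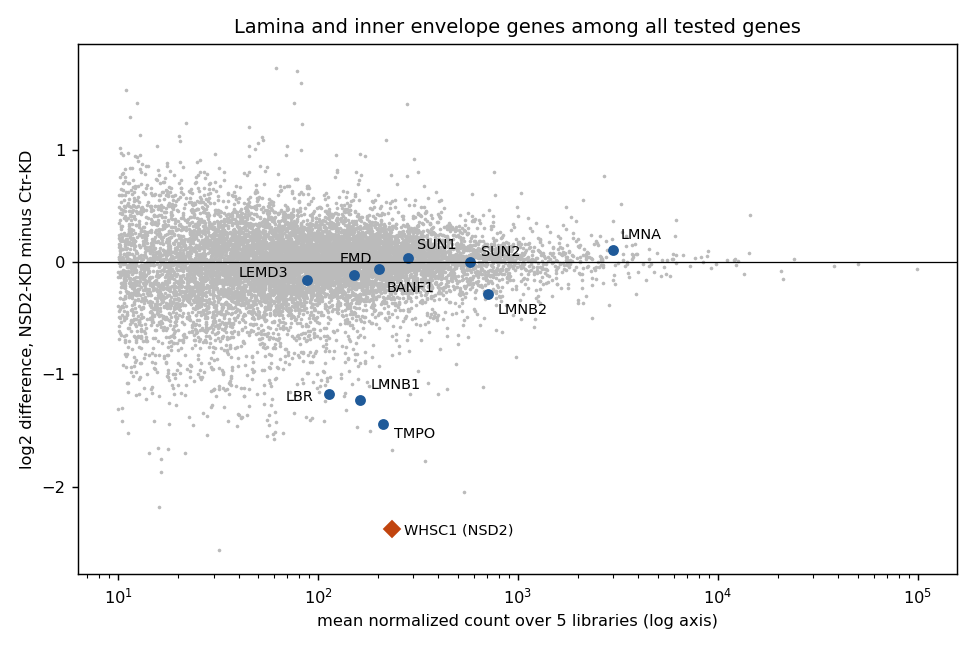
Log2 difference of NSD2-KD from Ctr-KD cells (vertical axis) against mean normalized count (horizontal log axis) for the 11313 tested genes in grey, with the 10 lamina and inner envelope genes in blue and the targeted gene WHSC1 as an orange diamond. TMPO, LMNB1 and LBR lie between -1.44 and -1.17, and the other 7 genes lie between -0.28 and 0.11.

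Across the 10 genes, 4 had all NSD2-KD libraries below both Ctr-KD libraries (TMPO, LMNB1, LBR and EMD), 0 had all above, and 6 overlapped. Over all tested genes 13.9% lay wholly below and 13.8% wholly above. Of the 10 log2 differences 7 were negative, beside 5822 of the 11313 tested genes. The median of the 10 was -0.14, beside a median of -0.01 over all tested genes.

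The single libraries of the siRNAs are given with their counting intervals. For LMNB1, the 95% counting intervals (exact Poisson, counting error only) of the normalized count were 89.9 to 130 with NSD2-1, 50 to 84.4 with NSD2-2 and 130 to 179 with NSD2-3. These intervals hold no variation between cultures, and over all genes the NSD2-KD libraries differed from each other by a chi-square of between 5.051 and 5.287 for each degree of freedom. TMPO had the same order, with intervals of 99.9 to 142, 71.2 to 111 and 150 to 202, of which those of NSD2-1 and NSD2-2 overlapped. LMNB2 (596 to 693, 466 to 560 and 766 to 878) and SUN2 (508 to 597, 418 to 507 and 674 to 779) were also lowest with NSD2-2 and highest with NSD2-3, as was EMD, whose intervals overlapped. LBR had another order, with overlapping intervals of 60.8 to 94.7, 63.5 to 101 and 52.4 to 85.2. LMNA and LEMD3 were highest with NSD2-2, BANF1 was lowest with NSD2-1, and SUN1 was lowest with NSD2-2 but highest with NSD2-1. The targeted gene differed little between the siRNAs, at 19.9%, 18.1% and 19.4% of the Ctr-KD mean. With 1 library per siRNA these differences were not tested between siRNAs.

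Lists of genes of the dividing cell were examined beside these genes. LBR and TMPO are themselves in the G2/M phase list that comes with the Seurat package, and members were removed from the phase lists for the following values. The median log2 difference from the Ctr-KD mean of 40 genes of S phase was -0.68, -1.46 and -0.91 with NSD2-1, NSD2-2 and NSD2-3, and that of 52 genes of G2/M was -0.81, -1.35 and -0.56. In limma 3 of the 40 and 1 of the 52 passed an adjusted p of 0.05, beside 0.0884% of all tested genes. At an unadjusted p under 0.05, 33 and 42 were lower, beside 4.99% of all tested genes, and 0 were higher, beside 4.19%. The log2 differences of LMNB1 were -1.15, -1.87 and -0.65, and those of TMPO were -1.48, -1.89 and -0.94. For all 4 of these, NSD2-2 was the lowest. Those of LBR were -1.14, -1.06 and -1.32, with NSD2-3 the lowest, and those of LMNB2 were -0.29, -0.62 and 0.06. The part of the phase genes in the values of LMNB1, TMPO and LBR was not tested.

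**Figure D4:**
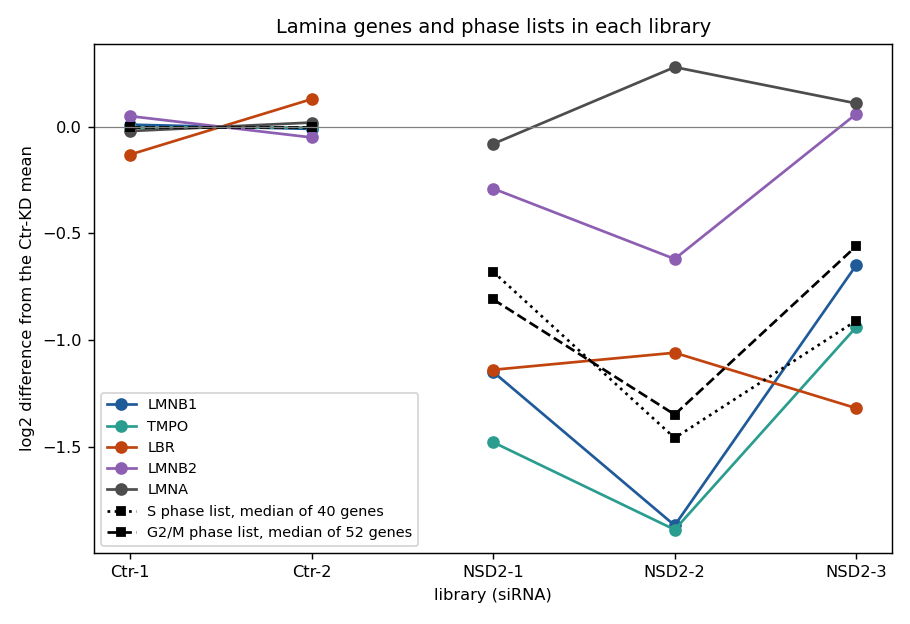
Log2 difference from the Ctr-KD mean (vertical axis) in each library for LMNB1, TMPO, LBR, LMNB2 and LMNA, and the median of 40 genes of S phase and of 52 genes of G2/M without members. LMNB1, TMPO and both phase lists are lowest with NSD2-2, whereas LBR is lowest with NSD2-3 and LMNA is highest with NSD2-2.

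The genes whose profile over the 5 libraries was most like that of LMNB1 were sought among 7576 other genes, with a minimum of 50 for the mean normalized count. Likeness was the root-mean-square difference of log2 values, each centred on the gene's mean, and 5 libraries share the same group structure, so it is a description. The closest were KIF11, a mitotic kinesin (0.057), GTSE1, a protein of G2 and S phase (0.105), ESPL1, which encodes separase (0.107), CCNB1, which encodes cyclin B1 (0.111), and CCNF, which encodes cyclin F (0.137). Of the members, TMPO stood at 0.148, with 9 of these genes closer, LBR at 0.475, with 271 closer, and LMNB2 at 0.494, with 322 closer.

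The promoters of the 3 genes with the lowest differences are shown because TMPO, LMNB1 and LBR were lower together. The 250 bases before the RefSeq transcription start (GRCh38.p14, 5′ to 3′ on the gene's strand) are given for LMNB1 (chr5:126776373-126776622, plus strand, the more upstream of 2 starts), TMPO (chr12:98515323-98515572, plus strand, the more upstream of 2 starts) and LBR (chr1:225428822-225429071, minus strand), with matches to the motifs below in capitals.
LMNB1: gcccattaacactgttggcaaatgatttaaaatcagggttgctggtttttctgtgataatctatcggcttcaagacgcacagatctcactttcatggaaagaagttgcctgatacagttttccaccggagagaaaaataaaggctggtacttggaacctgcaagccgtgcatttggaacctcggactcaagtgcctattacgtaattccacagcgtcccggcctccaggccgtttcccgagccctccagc
TMPO: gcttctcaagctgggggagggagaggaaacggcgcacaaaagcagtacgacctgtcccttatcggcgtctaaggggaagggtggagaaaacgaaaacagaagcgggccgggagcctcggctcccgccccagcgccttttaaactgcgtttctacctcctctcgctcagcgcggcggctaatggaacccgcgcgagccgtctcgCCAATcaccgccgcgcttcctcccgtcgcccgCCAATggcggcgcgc
LBR: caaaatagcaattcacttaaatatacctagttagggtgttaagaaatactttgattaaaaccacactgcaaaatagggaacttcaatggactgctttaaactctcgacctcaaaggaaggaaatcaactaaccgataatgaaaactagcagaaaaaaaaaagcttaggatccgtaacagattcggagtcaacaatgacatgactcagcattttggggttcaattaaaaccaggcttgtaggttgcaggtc
The motifs searched on both strands were those of E2F (TTTCCCGC, TTTCGCGC, TTTGCCGC or TTTGGCGC), the cell cycle homology region CHR (TTTGAA) and the CCAAT box, in windows from 250 bases before to 50 after each start. TMPO held CCAAT on its own strand at -47 and -15 from the start, the downstream window of LMNB1 held it on the other strand at -138, and LBR held none of the motifs. Of the 10 genes 9 had a window, and CCAAT stood in those of EMD, LEMD3, LMNA, LMNB1, SUN2 and TMPO, beside 39.7% of the 27305 genes with a window. E2F letters stood in LEMD3 and LMNA (3.99% of all genes) and CHR letters in LMNB2 and SUN2 (18.2%). No motif was shared by TMPO, LMNB1 and LBR in these windows. A match of letters is not a binding site.

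Other genes of the envelope, together with chromatin and BAF partners, were examined by list. None of the 28 tested genes among 33 listed passed an adjusted p of 0.05 in limma. Of these 28, 10 are chromatin and BAF partners. At an unadjusted p under 0.05, 3 were lower (4.99% of all tested genes) and 1 was higher (4.19% of all). Of the 28, 6 lay wholly below the controls (13.9% of all), 1 wholly above (13.8% of all) and 21 overlapped, and the median log2 difference was -0.09, beside -0.01 over all tested genes.

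Of 10 tested chromatin and BAF partners, 2 were lower at an unadjusted p under 0.05 and 1 was higher, beside 4.99% and 4.19% of all tested genes (median -0.16). VRK1, a kinase that phosphorylates BAF and releases it from DNA, had 36.2 and 53.5 normalized counts in Ctr-KD cells and 16.56, 13.11 and 20.5 in NSD2-KD cells (log2 difference -1.37, SE 0.289, limma adjusted p = 0.207). All its NSD2-KD values lay below both controls. HDAC3, a histone deacetylase that binds emerin and LAP2, lay wholly above, with 80.98 and 87.45 in Ctr-KD cells and 125.1, 126.7 and 121 in NSD2-KD cells (log2 difference 0.56, SE 0.139, limma adjusted p = 0.267). RB1, the retinoblastoma protein, named after its values were seen, had 189.6 and 183.1 in Ctr-KD cells and 148.1, 101.6 and 126.9 in NSD2-KD cells (log2 difference -0.58, limma adjusted p = 0.345).

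Of 7 other inner membrane genes tested, NEMP1, a nuclear envelope protein, was lower at an unadjusted p under 0.05. It had 109.6 and 94.65 normalized counts in Ctr-KD cells and 46.01, 58.99 and 71.26 in NSD2-KD cells (log2 difference -0.81, SE 0.213, limma adjusted p = 0.28). TOR1AIP1, which encodes the torsin activator LAP1, had the highest difference of this list, 0.18 (adjusted p = 0.802). Among the 6 lamin processing enzymes, 0 were past an unadjusted p of 0.05. ICMT, which methylates farnesylated lamins, had 442 and 450.6 normalized counts in Ctr-KD cells and 361.6, 214.1 and 405.1 in NSD2-KD cells (log2 difference -0.5, SE 0.242, limma adjusted p = 0.592), and RCE1, a protease of the same pathway, had a log2 difference of 0.19 (adjusted p = 0.83). The 3 tested nesprin genes (median -0.09) and the 2 torsins (median -0.07) held no gene past an unadjusted p of 0.05.

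**Figure D5:**
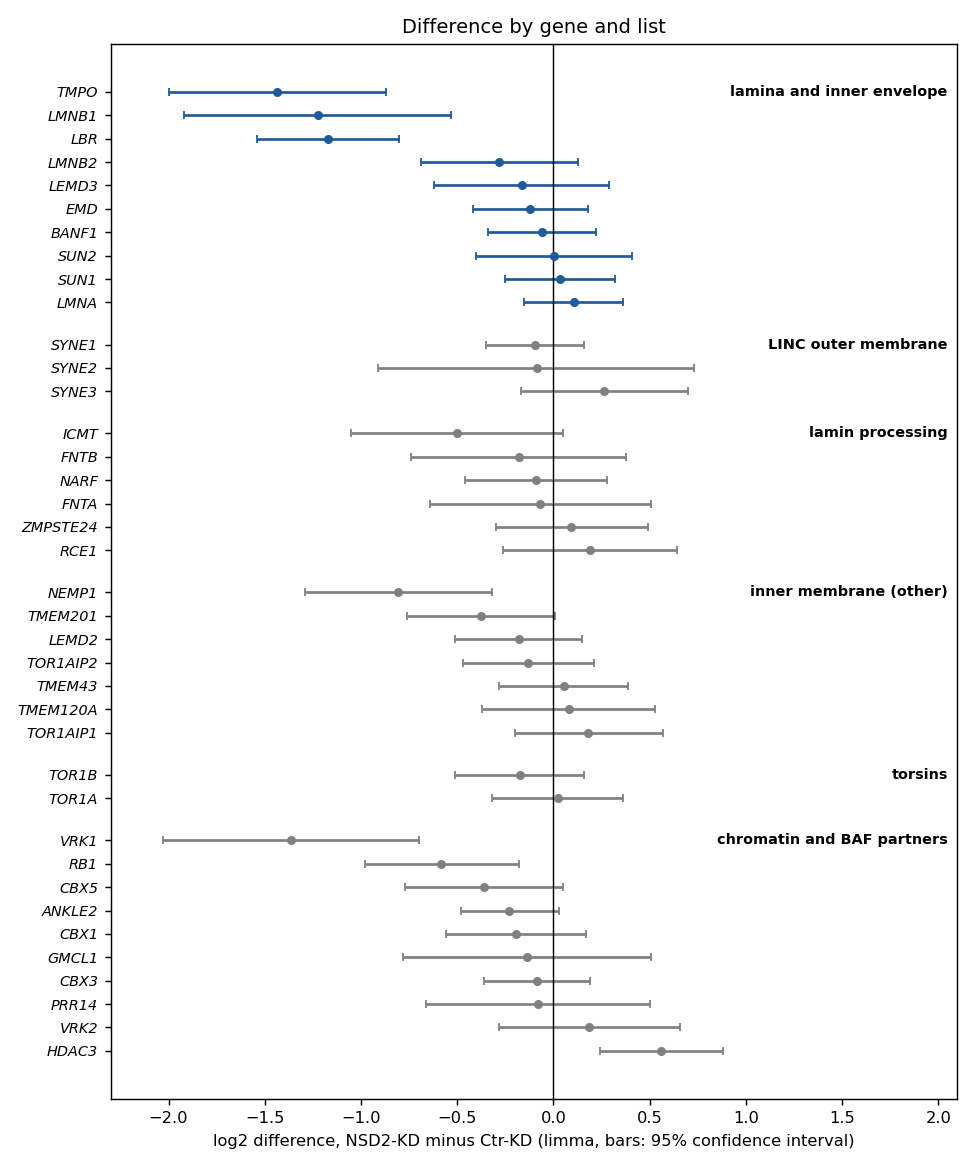
Log2 difference of NSD2-KD from Ctr-KD cells with its 95% confidence interval (limma) for the 10 lamina and inner envelope genes. The 28 other tested genes, from lists of the envelope and of chromatin and BAF partners, are also shown, grouped by list. The intervals of TMPO, LMNB1, LBR, VRK1, NEMP1, RB1 and HDAC3 lie off 0, before adjustment, and those of the other genes cross it.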

How the data were processed

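Messenger RNA of 2 Ctr-KD and 3 NSD2-KD libraries was sequenced. According to the submitters' processing notes and the study's methods, the authors mapped reads to hg19 with HISAT2, kept unique reads with SAMtools, counted them per gene with featureCounts and divided the counts by DESeq2 size factors. The annotation and strand setting are not given in the sources used here. The deposited signal is this normalized count, and a change shared by all genes would be hidden by it. A second deposited table holds the authors' own DESeq2 comparison and was not used. In each library 100% of values were whole multiples of 1 read (tolerance 0.05), and the reads were recovered.

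The main test was limma 3.58.1 with a mean-variance trend (R 4.3.3) on log2(normalized count + 1), which understates the change of low genes, over 11313 genes with a mean of at least 10, with Benjamini-Hochberg adjustment over all of them and a threshold of 0.05. The members and the lists were chosen with earlier results of these data known. The genes named are the members, the targeted gene, the 5 genes most like LMNB1, and genes of the lists. From each envelope or partner list of over 3 tested genes, the lowest and the highest gene are named. RB1 and TMPO-AS1 were named outside this rule, after their values were seen. Lists for S and G2/M phase are those of Seurat 5.3.0. Gene coordinates are from GENCODE on GRCh37, the assembly of hg19, and promoters from RefSeq on GRCh38.p14. Alternatives, described in the closing section, included edgeR 4.0.16, DESeq2 1.42.0 and limma-voom on the recovered reads, other pseudocounts, filters and scalings, the replicate number as a block and each library left out in turn. The fits were tested on simulated data that had the same spread in both groups, unlike the libraries here. Replicate numbers come from the labels, and for NSD2-KD they number the siRNAs.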

Additional observations from a re-analysis of the deposited data

How the results depend on the processing

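In 17 alternatives, LMNB1 (log2 difference -1.51 to -0.9), TMPO (-1.69 to -1.21) and LBR (-1.31 to -1.04) stayed negative, as did LMNB2, EMD and LEMD3, LMNA stayed positive, and BANF1, SUN1 and SUN2 took either sign without a call. Beside 10 genes called of all tested, limma without the trend called 1, edgeR 16 and DESeq2 58, and leaving out 1 library gave between 0 and 30. The 0 calls came without Ctr-1 or without Ctr-2 in limma, where 434 and 418 genes had an unadjusted p under 0.05, without NSD2-2 there were 4, and without NSD2-3 there were 30. Beside 0 of the 10 members, robust estimation called 1 and edgeR 1 (LBR in both), DESeq2 called 3, and leaving out 1 library gave between 0 and 1 (TMPO, without NSD2-3). The log2 difference of the targeted gene was between -2.41 and -2.33 with 1 library left out, and its adjusted p rose to 0.0927 without Ctr-1 and 0.0758 without Ctr-2. DESeq2 with 1 library left out, added after seeing the data, called between 0 and 3 members and between 3 and 64 of all genes, the 0 members and 3 genes without either Ctr-KD library. No other gene of the envelope and partner lists was called in any of the settings that keep both Ctr-KD libraries. Searched on the gene's own strand alone, CHR letters stood in 1 member (LMNB2, 10.2% of all genes) and CCAAT in 4 (EMD, LMNA, SUN2 and TMPO, 23.3% of all genes), without LMNB1 and LEMD3. The cause of these changes was not tested. Leaving out any 1 library leaves the same residual degrees of freedom. With 1 Ctr-KD library left, the spread within groups comes from the NSD2-KD libraries alone.

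Same-numbered libraries share only a number, and their deviations from the group means did not correlate (r = -0.015 and -0.027 over genes). With the replicate number as a block, 102 genes and 3 members were called (LMNB1 -1.51, TMPO -1.69, LBR -1.1). Number 3 holds only NSD2-3, so that library adds nothing to the difference in this fit. Its log2 differences for these members equal those without NSD2-3, and it is not a separate result on all libraries.

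Limits: there were 2 control libraries and 1 library per siRNA, and depth allows counting intervals as wide as those given for the 10 genes, whose lowest normalized count in any library was 65.54. Arms left with 1 library are assumed to vary like the other group, and the main fit takes the same spread for both groups. The groups differed in this, with a chi-square for each degree of freedom of 1.046 between the Ctr-KD libraries. Between NSD2-KD libraries it was 5.051 to 5.287.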
